A study of Homo sapiens with 15 samples.

Results

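The comparison described here set cells given the lipid products that lipoprotein lipase (LPL) releases from very low-density lipoprotein (VLDL) against cells given VLDL itself, within each of 5 experiments. Its members were all LPL:VLDL and all VLDL libraries, chosen by label, which came to 10 of the 15 small RNA libraries, and they formed 5 pairs that share the experiment labels 2 to 6. All groups were labelled as wild-type HEK-293 cells, a line from human embryonic kidney, and were incubated for 18 h. Marker messenger RNAs went against that label, as described after the sequences. The VLDL group carries the title pcDNA:VLDL, and the labels do not say what pcDNA was or how much lipid the cells received. The other 5 libraries received LPL:VLDL with 20 µM GKT136901, which blocks the enzymes NOX1 and NOX4 (NADPH oxidases), and entered only the estimate of the spread and of the experiment effects. RNA from whole cells was counted per gene, so fewer cells of a type and less RNA per cell cannot be told apart. The labels name the experiments as batches but do not say whether they were separate cultures, so the p-values reflect only how these libraries vary, and that variation may be technical.

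LPL sits on the surface of capillaries and macrophages and splits the triacylglycerol of VLDL into fatty acids and smaller glycerides, which cells take up. Small RNA libraries catch RNA classes with different tasks. MicroRNAs (miRNAs) guide the silencing of messenger RNAs that pair with their seed, and C/D box snoRNAs guide methylation of ribosomal RNA. Transfer RNAs (tRNAs) and Y RNAs appear in such libraries whole or as fragments.

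Sequences of some arms of the miRNA genes named below are given from RefSeq (GRCh38.p14), read 5′ to 3′ with the seed, bases 2 to 8, in capitals. MIR132 and MIR212 are neighbouring hairpins on the minus strand of chromosome 17 (hg38, 2049908 to 2050008 and 2050271 to 2050380), and their 3p arms share a seed. Of the 64 miRNA genes counted at a mean of at least 100 CPM, 59 had a RefSeq entry. The other arms belong to further miRNA genes whose values are given after these. Counts are per gene and do not tell the arms apart, and for MIR374A only the 3p arm was at hand.
miR-132-3p: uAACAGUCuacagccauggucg
miR-132-5p: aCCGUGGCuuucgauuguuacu
miR-212-3p: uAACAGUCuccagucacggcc
let-7i-5p: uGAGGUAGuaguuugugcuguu
miR-629-5p: uGGGUUUAcguugggagaacu
miR-1301-3p: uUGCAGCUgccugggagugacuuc
miR-374a-3p: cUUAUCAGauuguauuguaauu
miR-378a-3p: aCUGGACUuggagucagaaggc

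The 10 libraries held 8420870 to 9757123 counts. Of 50037 genes listed, 4099 had enough counts to be tested, and these held 99.664% of all counts. The HEK-293 label was set against marker messenger RNAs. The 17 HEK-293 markers had 146 counts over the 10 libraries, led by HOXA9, TUBB3 and CDH2. Of the 17, 9 were at 0, NEFL, NEFM, INA and PAX2 among them. The 17 together summed to 0.512 to 2.03 CPM with VLDL and 0.529 to 3.86 CPM with LPL:VLDL, higher with LPL:VLDL in 4 of 5 experiments. The 18 myeloid markers had 4541 counts, led by CSF1R, ITGB2 and SPP1, with AIF1, MPEG1, LSP1 and C1QA at 0. They summed to 35.1 to 99.4 CPM with VLDL and 24.7 to 120 CPM with LPL:VLDL, higher with LPL:VLDL in 2 of 5 experiments. These messenger RNA values go against the HEK-293 label. Myeloid miRNAs were not part of this check. The series title speaks of macrophages. Messenger RNA is seen only as fragments in these libraries, and the part of cell identity in the results was not tested.

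MIR132 rose with LPL:VLDL and was the only gene called in the fit with experiment as a block over all 15 libraries. Its hairpin gives miR-132, a miRNA known from neurons and from inflammatory signalling. In experiments 2 to 6 its level was 303, 221, 206, 117 and 99.1 CPM with VLDL and 334, 365, 343, 204 and 219 CPM with LPL:VLDL. It was higher with LPL:VLDL within all 5 experiments, although the groups overlap, because experiments 5 and 6 lie lowest in both. The mean rose from 189 ± 83.1 to 293 ± 75.5 CPM (SD, n = 5 each), a log2 difference of 0.70 with a standard error of 0.13 (edgeR quasi-likelihood test with experiment as a block, Benjamini-Hochberg adjusted p = 0.0494). This was 1 gene of 4099 tested, 0.0244%. The call was kept when experiment 2, experiment 3 or either library of experiment 2 was left out, and lost when experiment 4, 5 or 6 or any other single library was (log2 difference 0.55 to 0.81, edgeR, adjusted p from 0.0111 to 0.998). Without the block the log2 difference was 0.63 with a standard error of 0.27 and adjusted p = 0.999, and no gene was called. The call was also lost in a fit of the 10 VLDL and LPL:VLDL libraries alone (log2 difference 0.67, edgeR, adjusted p = 0.268). It was lost too with library-size scaling (0.54, adjusted p = 0.489), with DESeq2 size factors (0.69, adjusted p = 0.0614) and among genes with at least 100 counts in 5 libraries (0.62, adjusted p = 0.225). Other genes were called only under other settings, MIRLET7I with limma voom, MIR374A among miRNA genes scaled to their total, and MIR212 and SNORA18 with libraries left out. Of the 101 bases of the MIR132 hairpin 42 lie in an exon of LOC124903896.

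MIR212, which lies beside MIR132 and shares the seed of its 3p arm, had 294, 156, 197, 82.7 and 76.4 CPM with VLDL in experiments 2 to 6. With LPL:VLDL it had 280, 269, 255, 142 and 181 CPM. It was higher in 4 of 5 experiments and slightly lower in experiment 2, and the groups overlap. Its log2 difference was 0.61 with a standard error of 0.14 and did not pass the test (edgeR, adjusted p = 0.308). Without the LPL:VLDL library of experiment 2 alone its log2 difference was 0.74 and passed (edgeR, adjusted p = 0.0376). In experiment 2 the differences of both hairpins were the smallest of the 5, at 0.14 for MIR132 and -0.07 for MIR212. In experiment 6 they were the largest, at 1.14 and 1.24.

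**Figure D1:**
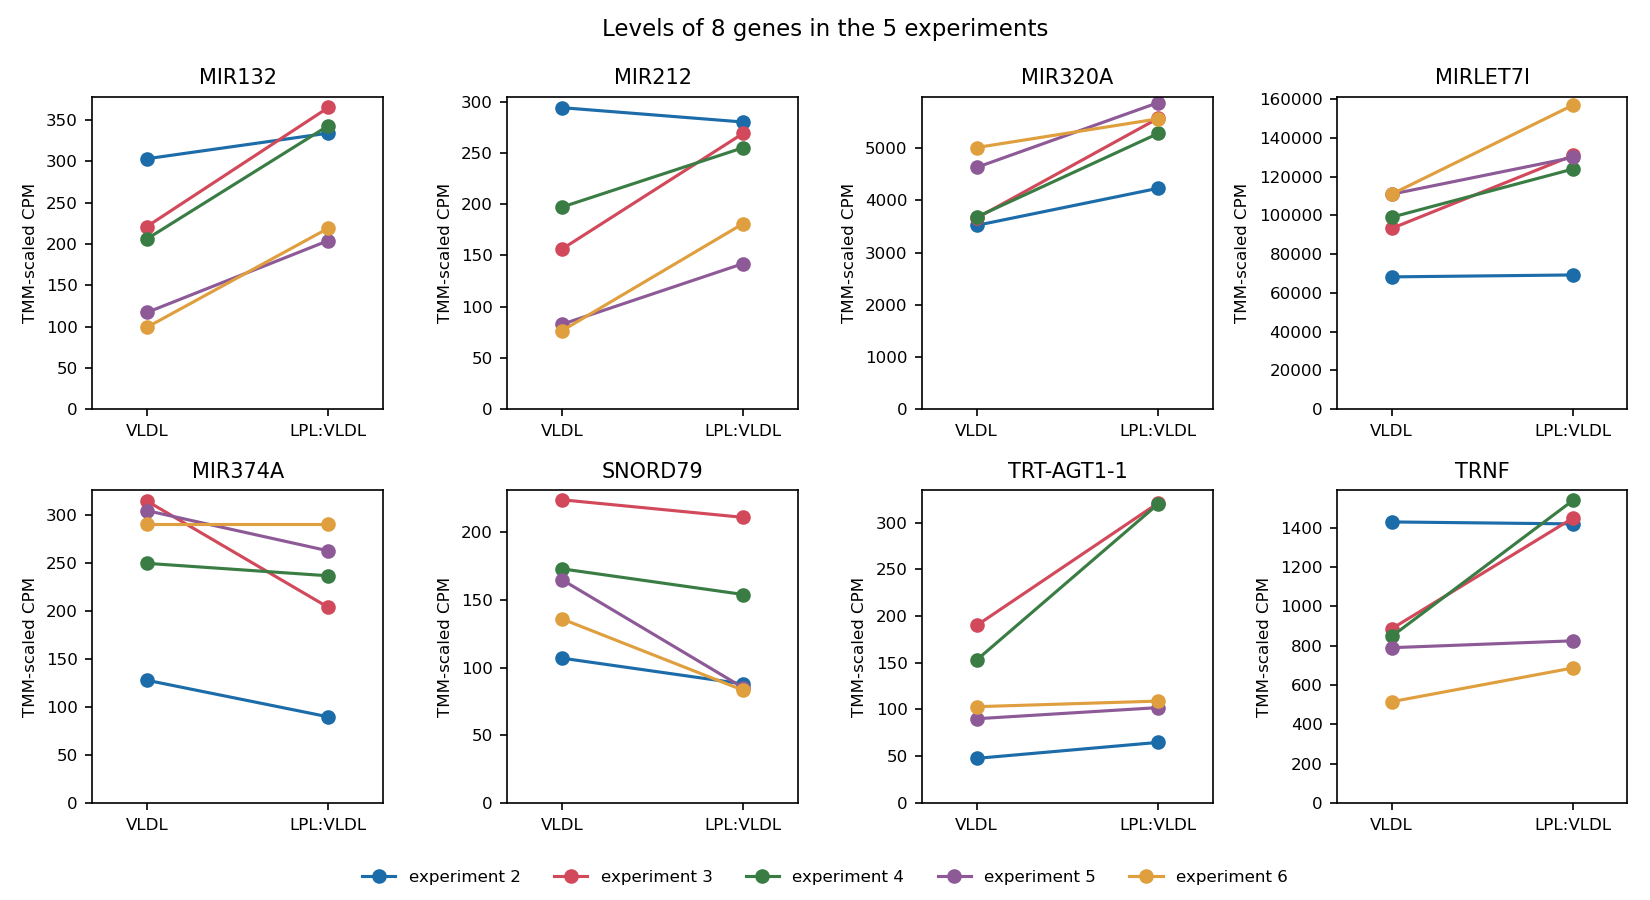
TMM-scaled CPM of 8 genes in each library, with VLDL at the left and LPL:VLDL at the right of each panel. Each line joins the 2 libraries of an experiment. The lines of MIR132 slope up in all 5 experiments, while the spread between experiments covers both groups.

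Over all genes tested, 172 had an unadjusted p under 0.05, which is 4.2%, with 91 higher (2.22%) and 81 lower (1.98%). Without the block there were 77 (1.88%). Over all 4099 genes 49.5% had a mean difference above 0 with TMM scaling and 37.6% with library-size scaling. For the 291 tested miRNA genes these shares were 69.4% and 45.0%, for the 166 tested C/D snoRNA genes 64.5% and 23.5%, and for the 3201 tested messenger RNA genes 46.0% and 37.3%. MIR132 apart, the genes described next have values but no call in this fit.

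MIR320A, whose product is made without the usual nuclear processing enzyme Drosha, had 3520, 3660, 3680, 4630 and 5010 CPM with VLDL in experiments 2 to 6. With LPL:VLDL it had 4230, 5570, 5280, 5870 and 5560 CPM. Each LPL:VLDL library lay above its VLDL partner, and the lowest LPL:VLDL value lay inside the VLDL range. The log2 difference was 0.38 with a standard error of 0.10 (edgeR, adjusted p = 0.62).

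MIRLET7I gives let-7i, a member of the let-7 family of differentiation-linked miRNAs, and was the second most abundant miRNA gene. It had 68300, 93300, 99100, 111000 and 111000 CPM with VLDL, and 69300, 131000, 124000, 130000 and 157000 CPM with LPL:VLDL. The pair of experiment 2 was nearly level, at a log2 difference of 0.02, and the other 4 pairs differed by 0.23 to 0.50. The fitted log2 difference was 0.31 (edgeR, adjusted p = 0.988), and limma voom called it at adjusted p = 0.00653. Of the 8 let-7 family genes tested, 6 had a log2 difference above 0 with a median of 0.10, and 2 did with library-size scaling.

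MIR629 had 99.6, 158, 157, 153 and 186 CPM with VLDL and 107, 207, 207, 195 and 245 CPM with LPL:VLDL. Its differences were 0.35 to 0.40 in experiments 3 to 6 and 0.10 in experiment 2. MIR1301 was higher by 0.11 to 0.61 in the 5 experiments. Neither passed the test (edgeR, adjusted p = 0.988 for both).

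MIR378A, which lies in an intron of the metabolic regulator gene PPARGC1B, was less abundant but even: it had 12.6, 30.9, 28.6, 29.4 and 29.4 CPM with VLDL. With LPL:VLDL it had 21.8, 42.7, 46.2, 45.2 and 45.3 CPM. Each pair differed in the same direction, by 0.46 to 0.78 on the log2 scale, from 2934 counts in all 10 libraries. The fitted difference was 0.63 with a standard error of 0.16 (edgeR, adjusted p = 0.515). It was the member with the lowest p of 16 tested miRNA genes linked to lipid and cholesterol metabolism, of which 14 lay above 0 with a median of 0.09, and 4 did with library-size scaling. MIR33A, which lies in the sterol regulator gene SREBF2, had 46.7 ± 6.48 CPM with VLDL and 48.5 ± 5.66 CPM with LPL:VLDL (SD, n = 5 each).

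MIR374A went the other way. It had 128, 315, 250, 305 and 291 CPM with VLDL, and 89.8, 204, 237, 263 and 291 CPM with LPL:VLDL. It was lower in experiments 2 to 5 and level in experiment 6, where the difference rounds to 0 and is counted as lower in the tallies of 5 of 5. Its log2 difference was -0.28 (edgeR, adjusted p = 0.988). When miRNA genes were scaled to the miRNA total of each library and tested among themselves, it fell by 0.45 on the log2 scale (edgeR, adjusted p = 0.00806).

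The most abundant miRNA gene, MIR148A, whose product is abundant in liver and targets the LDL receptor, had 108000 ± 44500 CPM with VLDL and 120000 ± 59300 CPM with LPL:VLDL (SD, n = 5 each). Its pairs differed by -0.18 to 0.37, and experiment 2 held the lowest level in both groups, 47100 and 50500 CPM. MIR30E was nearly level, with differences of -0.02 to 0.16. MIR146B, a negative regulator of inflammatory receptor signalling, had 16600 ± 1140 and 18900 ± 1350 CPM and was higher by 0.08 to 0.28 in all 5 pairs (edgeR, adjusted p = 0.988). Of the 6 tested miRNA genes known from inflammation, MIR132 was the 1 called, beside 0.0244% of all genes tested. Of the 6, 4 lay above 0 under both scalings, beside 69.4% of all tested miRNA genes with TMM and 45.0% with library-size scaling. The list was chosen with earlier results of these data known, so it lends no support to an inflammatory theme.

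The direction of small differences depended on the scaling. TMM, the trimmed-mean scaling used for the values above, gave the LPL:VLDL library of experiment 3 a factor of 0.765 against 1.01 for its VLDL partner, and that of experiment 6 a factor of 0.826 against 0.989. With library-size scaling the median log2 difference of all tested genes was -0.139, against -0.001 with TMM. Among the 188 genes with a mean of at least 100 CPM, which held 98.1% of counts, 25 were higher and 2 lower in 5 of 5 experiments with TMM. The same share over all tested genes was 3.44% higher and 3.46% lower. With library-size scaling 3 were higher and 11 lower, beside 1.27% and 5.54% of all tested genes. MIRLET7I and MIR132 were higher and SNORD79 and MIR374A lower in 5 of 5 under both scalings, although with DESeq2 size factors MIRLET7I was higher in 4 of 5.

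By class, the 64 well-counted miRNA genes had a median log2 difference of 0.11 with TMM, and 56 of them lay above 0. The 188 well-counted genes together had a median of 0.10 with 151 above 0. With library-size scaling the miRNA median was -0.031, with 24 of 64 above 0, and that of all 188 was -0.048, with 57 above 0. Scaled to the miRNA total, MIR629, MIR132 and MIR361 were higher and 13 miRNA genes lower in 5 of 5 experiments. The 96 well-counted C/D snoRNA genes had a median of 0.067 with TMM, and 73 of them lay above 0. With library-size scaling their median was -0.078, and 22 lay above 0. The 10 well-counted nuclear tRNA genes had a median of 0.19, and 0.04 with library-size scaling.

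**Figure D2:**
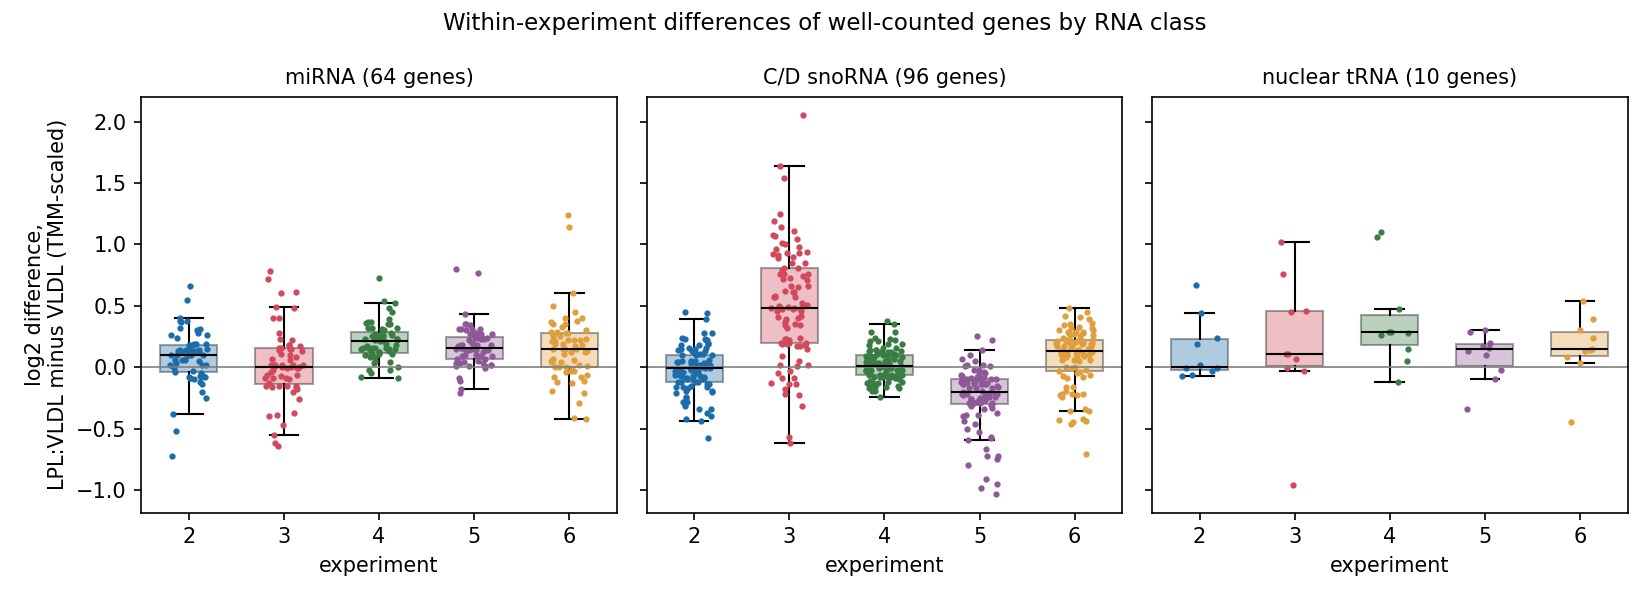
Log2 differences of TMM-scaled CPM, LPL:VLDL minus VLDL, by experiment for the well-counted genes of 3 RNA classes. Points are genes, boxes span the quartiles with the median as a line, and whiskers reach the farthest gene within 1.5 box lengths. The C/D snoRNA genes of experiment 3 lie highest, with a median of 0.49, and those of experiment 5 lowest, with a median of -0.20. With library-size scaling, not drawn here, these 2 medians were 0.09 and -0.19.

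The likeness of the differences between experiments was described over all 188 well-counted genes and by class. Over the 188 genes, the correlations between the differences of 2 experiments had a median of 0.13, from -0.47 to 0.58. Of these 10 correlations 7 were positive. For the 77 genes of at least 1000 CPM the median was -0.02, and 5 of 10 were positive. Across the 64 miRNA genes, the correlation between the differences of 2 experiments had a median of 0.37 over the 10 pairs of experiments and was positive in 9. Across the 96 C/D snoRNA genes the median was -0.08, from -0.35 to 0.65, and 4 of 10 were positive. These correlations run across genes, which share libraries and scaling, and are a description. In the sums of squares of TMM-scaled log2 CPM over all 188 genes, experiment took 82.8%, treatment 4.17% and the remainder 13.1%. These shares rest on 4, 1 and 4 degrees of freedom. For miRNA genes they were 92.1%, 4.27% and 3.59%, and for C/D snoRNA genes 68.0%, 4.02% and 28.0%. Per degree of freedom, treatment over remainder was 1.28 for all 188 genes, 4.76 for miRNA genes and 0.574 for C/D snoRNA genes, given as a description. The shares were computed with TMM only, and the evenness of a class depended on the scaling. With TMM the median differences of the experiments had an SD of 0.077 for miRNA genes and 0.255 for C/D snoRNA genes. With library-size scaling these SDs were 0.234 and 0.112. Without experiment 2 the share of experiment over all 188 genes was 70.3% and that of treatment 8.61%. Without experiment 3 the remainder was 6.2%.

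C/D snoRNAs carry a C box and a D box near their ends, and the 2 boxes bring in the methylation proteins. Of the 96 well-counted genes, 79 had a GENCODE 29 transcript, 62 of which (78.5%) hold the C box letters TGATGA and all of which hold the D box letters CTGA on the transcript strand. The following 3 show SNORD66, which was lower with LPL:VLDL in experiment 3, the longer SNORD21, which was higher there, and the most abundant one, SNORD49A, with TGATGA and the last CTGA in capitals. They lie on the plus strand of GRCh38 at chr3:184325696-184325771, chr1:92837289-92837383 and chr17:16440036-16440106 and are written in DNA letters.
SNORD66: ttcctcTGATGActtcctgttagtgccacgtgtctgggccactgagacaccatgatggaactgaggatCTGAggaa
SNORD21: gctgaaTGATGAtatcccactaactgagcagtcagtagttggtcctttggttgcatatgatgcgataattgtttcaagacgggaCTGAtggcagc
SNORD49A: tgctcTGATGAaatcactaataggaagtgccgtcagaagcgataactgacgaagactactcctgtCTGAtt

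Experiment 3 stood apart, and not only for the C/D snoRNAs. The differences of all 188 well-counted genes had an SD of 0.481 there, against 0.214 to 0.304 in the other experiments. With TMM scaling 15 of the 188 genes passed 2-fold there, against 0 to 2 elsewhere. The 3 well-counted scaRNA genes, guides of small nuclear RNA modification, had a median of 1.49 in experiment 3 and -0.54 to 0.29 elsewhere. SNORA18, a snoRNA of another class, differed by 0.84 in experiment 3 and by -0.74 to -0.16 elsewhere. SNORD10 had 602, 423, 425, 376 and 526 CPM with VLDL, and 403, 1760, 498, 317 and 448 CPM with LPL:VLDL. The LPL:VLDL library of experiment 3 was the only one of the 10 above 602 CPM. SNORD21 had 7390 CPM with VLDL and 15500 CPM with LPL:VLDL in experiment 3, and its other 4 pairs differed by -0.39 to 0.08. SNORD46 differed by 1.54 in experiment 3 and by -0.75 to 0.38 elsewhere. SNORD66 went down there, from 2070 to 1390 CPM, and its other pairs differed by -0.07 to 0.23. SNORD78 differed by -0.62 in experiment 3.

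The difference in experiment 3 was larger for longer C/D snoRNAs. With TMM scaling its median was 0.24 for the 37 genes under 75 bases and 0.57 for the 33 genes of 75 to 89 bases. For the 26 genes of 90 bases or more it was 0.76. Over all 96 genes the median was 0.49 with TMM and 0.09 with library-size scaling. The choice of scaling moves the genes of an experiment nearly alike, so it changes these levels but hardly their order. In experiments 5 and 6 the order was the opposite, with -0.15 and 0.20 for the shortest genes and -0.38 and -0.05 for the longest. Spearman's rho between length and difference was 0.03, 0.37, 0.34, -0.30 and -0.40 in experiments 2 to 6, given across genes as a description. Of the 8 well-counted copies of SNORD116, similar genes of the Prader-Willi region on chromosome 15, 7 are among the longest. Reads that match several copies were not counted. SNORD116-1 differed by 1.14 in experiment 3 and by -0.91 in experiment 5. The part of the recovered RNA lengths in these differences was not tested.

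**Figure D3:**
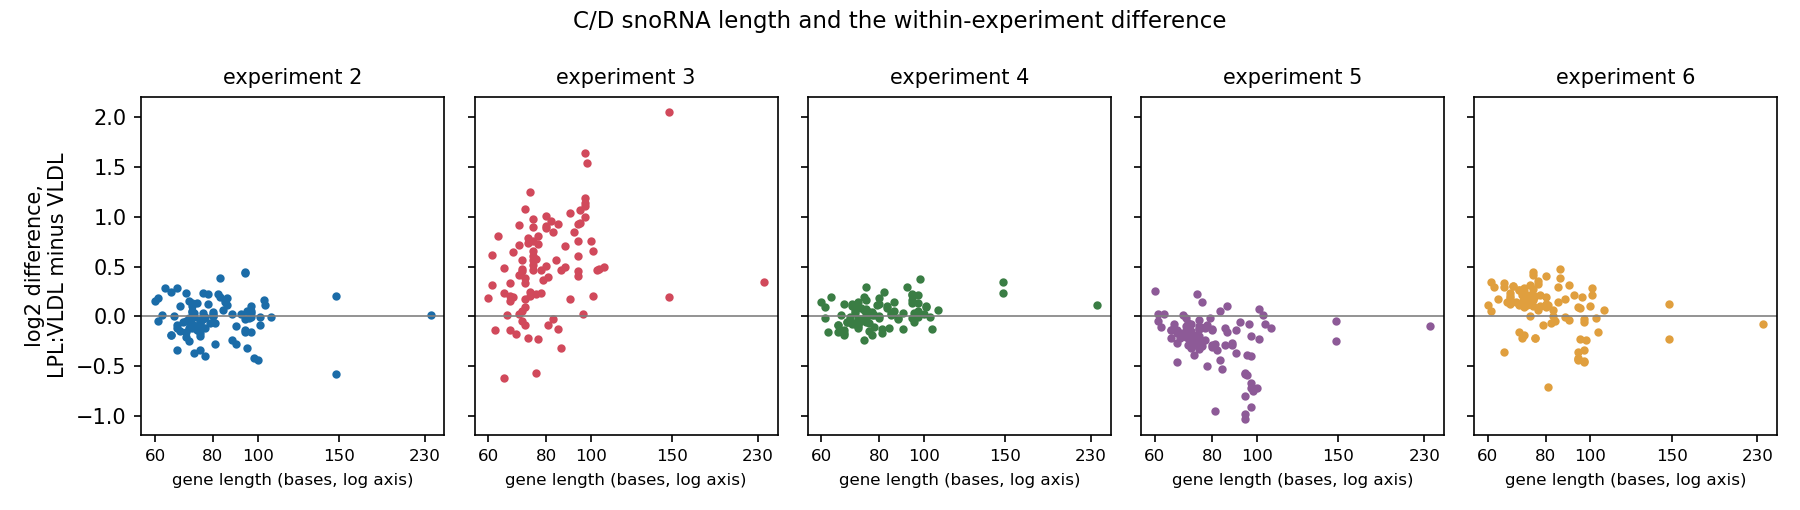
Log2 difference of TMM-scaled CPM, LPL:VLDL minus VLDL, against gene length in bases (log axis) for 96 well-counted C/D snoRNA genes, one panel per experiment. Each point is a gene. Longer genes lie higher in experiment 3 (rho 0.37) and lower in experiment 6 (rho -0.40).

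The well-counted C/D snoRNA with the lowest p was SNORD79, which lies in an intron of GAS5 on chromosome 1. It had 107, 224, 173, 165 and 136 CPM with VLDL and 87.9, 211, 154, 85.1 and 83.2 CPM with LPL:VLDL. It was lower in all 5 pairs, most in experiments 5 and 6, and the groups overlap. Its log2 difference was -0.43 with a standard error of 0.16 (edgeR, adjusted p = 0.988). Of the 96 well-counted C/D snoRNA genes, 3 (3.12%) had an unadjusted p under 0.05 in this fit, beside 4.2% of all genes tested. SNORD79 was lower and the other 2 were higher. SNORD95 was 1 of those higher, at a log2 difference of 0.30, in 5 of 5 pairs with TMM and 4 of 5 with library-size scaling. Of the 10 GAS5 snoRNA genes tested, 5 lay above 0 and 5 below, with a median of 0. The most abundant C/D snoRNA gene, SNORD49A, had 81300 ± 13100 CPM with VLDL and 92700 ± 24200 CPM with LPL:VLDL (SD, n = 5 each). Its LPL:VLDL library of experiment 3 was at 132000 CPM and the others at 67700 to 94500 CPM. With library-size scaling its log2 difference was 0.02, and it was higher in 2 of 5 pairs.

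Among the RPL13A snoRNAs, known from lipid-induced cell death, 4 of 5 tested lay above 0 with a median of 0.07, and 1 of 5 did with library-size scaling. SNORD60, which has been tied to cholesterol trafficking, had 1420 ± 151 CPM with VLDL and 1630 ± 648 CPM with LPL:VLDL (SD, n = 5 each). Its LPL:VLDL library of experiment 3 was at 2750 CPM and the others at 1090 to 1570 CPM. All 3 tested snoRNAs tied to cholesterol trafficking lay above 0 with a median of 0.22, and 2 did with library-size scaling. Of 7 tested SNHG1 snoRNAs 3 lay above 0, with a median of -0.026. SNORA18, an H/ACA snoRNA (the class that guides pseudouridine formation), had 656, 577, 447, 469 and 425 CPM with VLDL and 399, 1040, 400, 280 and 287 CPM with LPL:VLDL. It was lower in all experiments but experiment 3, where it was the highest of the 10 libraries. Its log2 difference was -0.25 (edgeR, adjusted p = 0.988), and it was called lower without experiment 3 (-0.56, edgeR, adjusted p = 0.0448) and without the LPL:VLDL library of that experiment (-0.55, edgeR, adjusted p = 0.0464). Of its 132 bases 40 lie in an exon of TAF1D.

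Among tRNA genes, the threonine tRNA gene TRT-AGT1-1 had 47.7, 190, 153, 90.1 and 103 CPM with VLDL and 64.8, 321, 320, 102 and 109 CPM with LPL:VLDL. The pairs of experiments 3 and 4 differed most, and the groups overlap. The cysteine tRNA gene TRC-GCA4-1 was highest in the same 2 LPL:VLDL libraries, at 306 and 399 CPM. Their log2 differences were 0.50 and 0.47 (edgeR, adjusted p = 0.80 and 0.988). Nuclear tRNA genes have near-identical copies, and reads that match several of them were not counted, so these levels cover only part of the RNA and are uncertain. TRNF, the mitochondrial phenylalanine tRNA, had 1430, 886, 847, 790 and 515 CPM with VLDL and 1420, 1450, 1540, 825 and 687 CPM with LPL:VLDL, again with the largest gaps in experiments 3 and 4 (log2 difference 0.40, edgeR, adjusted p = 0.988).

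As shares of all counts, no RNA class passed the test. The test was an exact sign-flip permutation test of the 5 within-experiment differences (two-sided), which cannot go below p = 0.0625, adjusted over 18 classes. C/D snoRNAs took 57.9% ± 4.1 of counts with VLDL and 56.9% ± 6.46 with LPL:VLDL, and the LPL:VLDL share was lower in 4 of 5 experiments and higher in experiment 3 (58.4% against 65.9%). The miRNAs took 37.8% ± 5.22 and 38.8% ± 7.04, and were higher in 4 of 5. Mitochondrial tRNAs were higher in 5 of 5 experiments, at a mean of 0.133% against 0.149%, where the difference was 0.0573 percentage points in experiment 4 and at most 0.0122 elsewhere. Small nuclear RNAs, which build the spliceosome, were lower in 5 of 5, at 0.0300% ± 0.00507 against 0.0235% ± 0.00322, and in 4 of 5 with TMM scaling (exact p = 0.0625, adjusted 0.375, for both classes). Nuclear ribosomal RNA, at 0.0025% ± 0.000288 against 0.00201% ± 0.00039, was lower in 5 of 5 experiments under both scalings, with the same exact p and adjusted p for its share. With TMM scaling the summed miRNA and nuclear tRNA levels were higher in 5 of 5 (exact p = 0.0625 each, unadjusted), while their shares were higher in 4 and 3 of 5. RNY1, the most abundant Y RNA gene, had 10400 ± 6450 CPM with VLDL and 10400 ± 6760 CPM with LPL:VLDL (SD, n = 5 each), and of the 5 tested Y and vault RNA genes 2 lay above 0 with a median of -0.004. Y RNAs took 3.12% and 3.25% in experiment 2 and 0.546% to 1.03% in the other experiments.

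**Figure D4:**
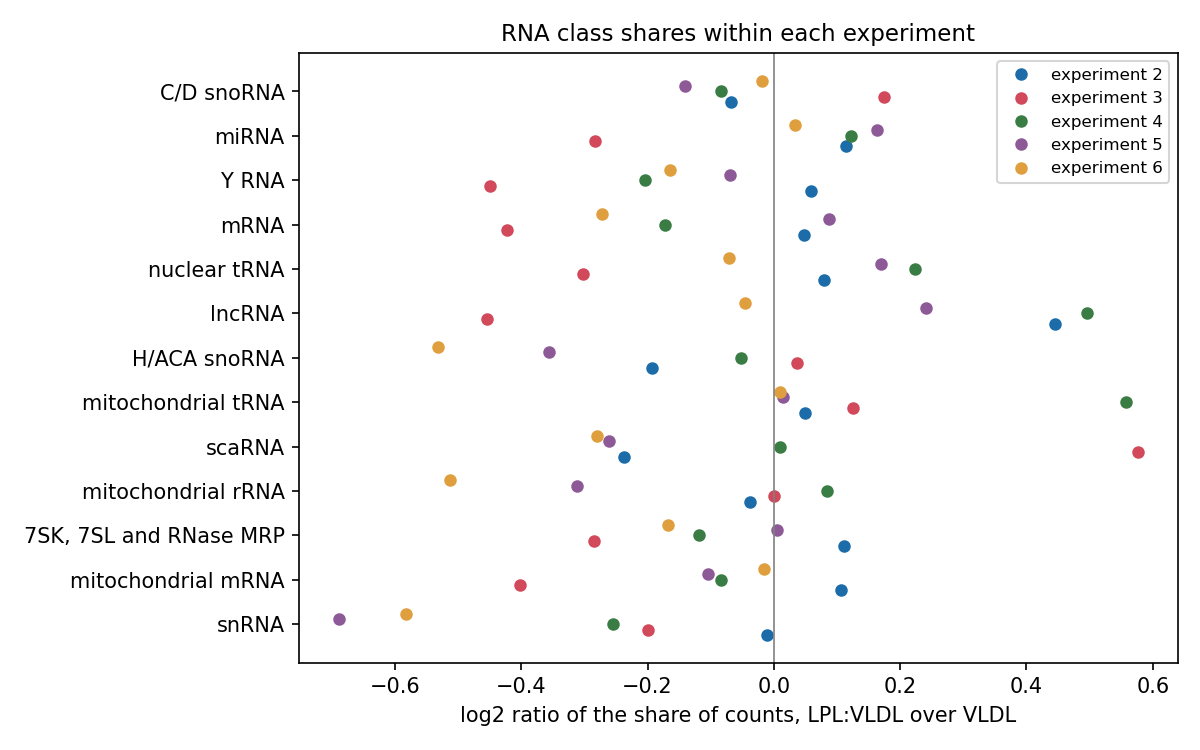
Log2 ratio of the share of counts, LPL:VLDL over VLDL, for 13 RNA classes. Each point is 1 experiment. Mitochondrial tRNA lies above 0 in all 5 experiments and small nuclear RNA below 0 in all 5, and experiment 3 lies opposite to the other 4 for the miRNAs and C/D snoRNAs.

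Messenger RNA fragments were few, and without strand they cannot be told from those of overlapping antisense genes. TOR3A, which codes for a torsin ATPase, was the most abundant and had 505 ± 161 CPM with VLDL and 622 ± 207 CPM with LPL:VLDL (SD, n = 5 each). It was higher in 5 of 5 pairs, by 0.21 to 0.45, without passing the test (edgeR, adjusted p = 0.988). ABCA1, which exports cholesterol to apolipoproteins, had 129 counts over the 10 libraries, and its level was 1.41, 2.04, 1.57, 0 and 0 CPM with VLDL against 1.04, 3.88, 2.43, 0.985 and 1.07 CPM with LPL:VLDL (edgeR, adjusted p = 0.988). Of the 4 tested targets of the fatty acid and oxysterol receptors (PPARs and LXRs), 3 lay above 0 with a median of 0.43, and none was called. Of the 10 tested targets of SREBPs, which drive cholesterol synthesis, 3 lay above 0 with a median of -0.3. The 4 tested genes linked to NADPH oxidases all lay below 0 with a median of -0.924, from few counts. Of these 1 had an unadjusted p under 0.05, as did 3.41% of all messenger RNA genes tested. It was POLDIP2, which had 79 counts and is not itself an oxidase gene.

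The cell cycle inhibitor gene CDKN1A had 15.6, 7.44, 10.8, 11.4 and 8.67 CPM with VLDL and 10.4, 7.62, 4.28, 6.24 and 5.5 CPM with LPL:VLDL. It was lower in 4 of 5 pairs, and the groups overlap (log2 difference -0.66, standard error 0.22, edgeR, adjusted p = 0.988). Of the 10 tested stress response genes 7 lay above 0, with a median of 0.25. The 6 tested NRF2 targets, which serve antioxidant defence, had 3 above and 3 below 0, and SLC7A11, the cystine importer, had 2.76 ± 1.21 CPM with VLDL and 4.66 ± 1.97 CPM with LPL:VLDL (SD, n = 5 each, edgeR, adjusted p = 0.988).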

How the data were processed

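Small RNA was measured in 15 libraries labelled HEK-293. The authors deposited raw counts per gene, from featureCounts 2.0.6 per the file headers, unstranded and with multi-mapped reads not counted. The submitters' processing notes also name fastp 0.24.0, STAR 2.7.11b and hg38. A count is per gene, not per miRNA arm, and antisense pairs are not separated. Members and lists were chosen with earlier results of these data known.

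Genes passed filterByExpr (minimum count 10, total 15). edgeR 4.0.16 (R 4.3.3, TMM) fitted group and experiment over all 15 libraries with 8 residual degrees of freedom, testing LPL:VLDL against VLDL (quasi-likelihood F test, Benjamini-Hochberg, called under 0.05). CPM are TMM-scaled, and log2 values per library use a prior count of 2. Well-counted genes had a mean of at least 100 CPM in the 10 libraries. Named genes were those called, the 12 well-counted genes with the lowest p, the largest differences with 1 direction in 5 of 5 (6 higher, and the 2 that were lower), the 3 most abundant per class, the lowest p of each list, and MIR212; others, such as MIR146B, MIR33A and the snoRNAs of experiment 3, were chosen after their values were seen. The method was tested on simulated data with no differences between experiments and with changes of at least 2-fold. That test does not cover a smaller change such as that of MIR132.

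Pairing comes from the batch label. Residuals of same-numbered VLDL and LPL:VLDL libraries correlated at 0.0904 to 0.378, against -0.119 to 0.148 with a median of -0.0733 for other numbers, so 3 of the 5 lay below the highest of these. Alternatives used DESeq2 1.42.0 and limma 3.58.1.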

Additional observations from a re-analysis of the deposited data

Results flagged for a closer look

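In 8 of 56 groups of 5 values examined, 1 value lay far from the other 4 (Dixon's test, 95%). Chance flags about 1 in 20 groups. Experiment 2 accounts for 6 of the 8. Y RNA took 3.12% of counts with VLDL and 3.25% with LPL:VLDL there, messenger RNA took 1.49% with VLDL, and mitochondrial messenger RNA took 0.0815% with VLDL and 0.0877% with LPL:VLDL, each the highest of its 5 libraries. The MIR629 difference in experiment 2 was 0.10, below the 0.35 to 0.40 of the other experiments.

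In experiment 4 the mitochondrial tRNA share was 0.0573 of a percentage point higher with LPL:VLDL, against at most 0.0122 elsewhere. In experiment 3 the share of scaRNAs, which guide modification of small nuclear RNAs, was 0.0449 of a percentage point higher, against at most 0.00056 elsewhere.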

How the results depend on the processing

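The 1 call, MIR132, was kept with DESeq2, with no filter, and in 4 of the 15 fits that left out an experiment or a library. The count of calls was 0 with no replicate block, with only the 10 libraries, with DESeq2 size factors, with library-size scaling, with at least 100 counts in 5 libraries, and, in alternatives chosen after seeing the data, among C/D snoRNAs scaled to their total and with DESeq2 or limma voom without the block. It was 2 with limma voom and among miRNA genes scaled to their total. Leave-outs gave 0 to 2 calls. The MIR132 log2 difference was 0.63 with no replicate block (adjusted p = 0.999), 0.67 with 10 libraries (0.268), 0.69 with size factors (0.0614), 0.54 with library-size scaling (0.489) and 0.62 with the count filter (0.225), and 0.55 to 0.81 over leave-outs, with adjusted p from 0.0111 to 0.998.

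Library-size scaling turned MIR148A to -0.03, MIR30E to -0.10, SNORD50A to -0.05, TRNH to -0.04, RNY5 to -0.13, RNU12 to -0.09 and SNORD60 to -0.01. Scaling to the class total gave MIR148A -0.07, MIR30E -0.13 and SNORD50A -0.02. The count filter gave MIR30E -0.02, RNY5 -0.05 and RNU12 -0.01, and the 10 libraries alone gave RNY5 -0.02. Leave-outs moved MIR30E from -0.01 to 0.06, SNORD50A from -0.04 to 0.20, SNORA62 from -0.30 to 0.10, SNORA63 from -0.21 to 0.02, RNY5 from -0.09 to 0.07, RNU12 from -0.11 to 0.15, SNORD32A from -0.01 to 0.35, SNORD60 from -0.06 to 0.30 and HOXA9 from -0.14 to 0.54. None of these genes was called. The cause was not tested.

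As log2 ratios of TMM-scaled sums, C/D snoRNA (0.117), scaRNA (0.106), 7SK, 7SL and RNase MRP (0.0534) and mitochondrial mRNA (0.0441) turned above 0. Without the 5 most abundant genes scaRNA was at 0.00167 percentage points. Leave-outs gave, in percentage points, -3.03 to 0.134 for C/D snoRNA, 0.00549 to 2.95 for miRNA, -0.0262 to 0.0578 for nuclear tRNA, -0.0121 to 0.00344 for scaRNA and -0.00394 to 6.09e-05 for mitochondrial mRNA. The medians moved to -0.048 (all), -0.031 (miRNA) and 0.042 (nuclear tRNA) with library-size scaling, and from -0.026 to 0.151 for C/D snoRNA over leave-outs. Over leave-outs the share of variance by experiment was 70.3% to 88.4% and by treatment 3.63% to 8.61%, computed with TMM only.

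Well-counted genes higher in 5 of 5 numbered 3 with library-size scaling, 44 at a minimum of 20 CPM and 7 at 1000 CPM. Those lower numbered 11, 6 and 0. Scaled to class totals, chosen after seeing the data, 3 miRNA genes were higher and 13 lower, and 0 C/D snoRNA genes higher and 7 lower. Genes of few counts, such as POLDIP2 and ABCA1, are limited by depth.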
